A study of Caenorhabditis elegans with 2 samples.

Results

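The vesicle sorting and Rab trafficking genes examined here were the 66 protein-coding genes of the WBcel235 annotation of Caenorhabditis elegans whose names start with vps-, rab-, snx-, arl- or arf-, without rab-3, out of 19865 protein-coding gene names. They comprised 31 vps, 19 rab, 7 snx, 6 arl and 3 arf genes. The data were 2 chromatin immunoprecipitation libraries of 1 group, biological replicates 3 and 4, from whole hermaphrodite L1 larvae of strain GOU883 taken 6 h after synchronization by starvation. EGL-13, a SoxD-type HMG-box transcription factor, carried a C-terminal GFP-FLAG tag from a stable transgene and was precipitated with an antibody to GFP. There was no second condition, and the signal at a site averages over all cells of the larva. Sites came from the authors' optimal list, which was the same set as the 2294 strongest regions called on the pooled reads. Not every region in it had a summit in each replicate. Within 100 bp, 108 of the 2294 had no replicate 4 summit and 42 had no replicate 3 summit. A gene had a site where an optimal summit lay between 1000 bp upstream and 200 bp downstream of one of its transcripts' 5′ ends. The families were selected on measured values, namely the optimal sites of these same lists at their promoters, so the counts of sites are a description and carry no test.

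The vps genes are named after yeast vacuolar protein sorting genes. Many of them encode subunits of the ESCRT complexes, which bud vesicles into the lumen of endosomes, of the HOPS, CORVET, GARP and EARP tethers, which capture vesicles before fusion, and of retromer, which retrieves cargo from endosomes. Rab, Arf and Arl proteins are small GTPases that recruit such machinery to a given membrane, and sorting nexins bind phosphoinositide lipids on endosomes. In worms these genes act in endocytosis, in the clearance of dying cells and in the traffic of yolk and receptors, and most are used in many tissues.

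The summit and 50 bases to each side of it are shown for 7 of the 16 member sites, to set the GC-rich sites that hold the run GACGC beside those that do not. Sequences are from the RefSeq WBcel235 genome (ce11), plus strand, 5′ to 3′. Capitals mark GACGC with any A that completes GACGCA, the SOX-type run in arf-6 and the GATA-type run in vps-2, on either strand. Those of vps-60 (V:8606416-8606516), rab-14 (X:15607008-15607108), rab-7 (II:11967677-11967777) and snx-13 (IV:17087586-17087686) hold GACGC. That of vps-22 (III:4963048-4963148) holds none of them, that of arf-6 (IV:16946894-16946994) holds AACAAT, and that of vps-2 (II:12768431-12768531) holds TGATAA and has the lowest GC content of the 16.
vps-60: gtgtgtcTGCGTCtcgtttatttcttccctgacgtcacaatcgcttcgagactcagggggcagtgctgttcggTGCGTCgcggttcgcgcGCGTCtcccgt
rab-14: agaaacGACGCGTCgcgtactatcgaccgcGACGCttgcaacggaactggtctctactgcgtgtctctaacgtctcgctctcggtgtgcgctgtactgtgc
rab-7: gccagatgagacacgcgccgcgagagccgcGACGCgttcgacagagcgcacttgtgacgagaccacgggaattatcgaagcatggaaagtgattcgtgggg
snx-13: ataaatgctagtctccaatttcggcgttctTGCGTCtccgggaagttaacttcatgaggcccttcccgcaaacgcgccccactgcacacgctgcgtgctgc
vps-22: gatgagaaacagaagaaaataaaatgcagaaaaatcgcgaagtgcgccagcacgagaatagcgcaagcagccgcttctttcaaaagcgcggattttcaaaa
arf-6: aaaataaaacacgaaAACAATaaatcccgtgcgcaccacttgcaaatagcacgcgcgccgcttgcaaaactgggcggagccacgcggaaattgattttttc
vps-2: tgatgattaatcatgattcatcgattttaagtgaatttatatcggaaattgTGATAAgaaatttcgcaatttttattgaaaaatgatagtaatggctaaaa

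Of the 66 members, 16 had an optimal site (exact binomial 95% interval of the share 14.5% to 36.4%), against 8.46% of all protein-coding genes. The vps class held most of them, with 10 of 31 genes (32.3%, exact binomial 95% interval 16.7 to 51.4). The rab class had 4 of 19 (21.1%, 6.05 to 45.6), the snx class 1 of 7 (14.3%, 0.361 to 57.9) and the arf class 1 of 3 (33.3%, 0.84 to 90.6). No arl gene of 6 had a site, which allows a share of up to 45.9% on the same interval. Intervals cover the counting of genes only. The snx, arl and arf classes are too small for their shares to be narrowed down. Without replicate 3 the rab share was 10.5% (2 of 19) and without replicate 4 it was 26.3%, while the vps share was 32.3% in both. The vps genes counted were not the same. Without replicate 3 vps-33.1 was lost and vps-37 gained, and without replicate 4 vps-36 was lost and vps-24 gained.

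**Figure D1:**
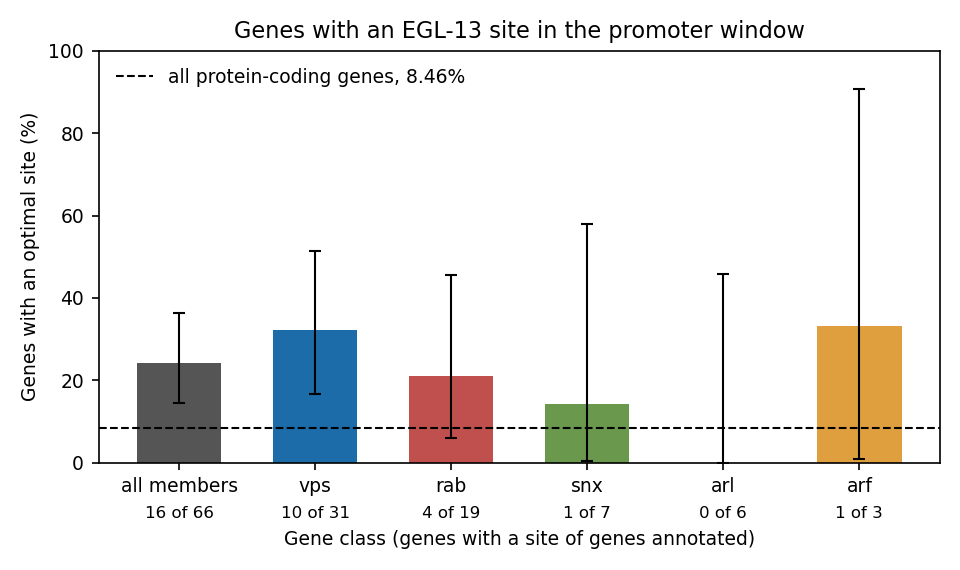
Share of genes with an optimal EGL-13 site in the promoter window, in percent, for all 66 members and for each name class, with bars as shares and error bars as exact binomial 95% intervals over genes. The vps bar stands at 32.3% and the arl bar at 0, and the dashed line marks the 8.46% of all protein-coding genes.

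With all regions called on the pooled reads counted, background included, 42 of 66 members (63.6%) had a summit in the window against 43.1% of all genes. They were 22 of 31 vps, 12 of 19 rab, 4 of 7 snx, 3 of 3 arf and 1 of 6 arl genes. The 1 arl gene was arl-13, which encodes a ciliary GTPase. Among genes with any such region, 16 of 42 members (38.1%) had an optimal site, beside 19.6% of 8560 genes overall. Counting only optimal sites that each replicate also had within its own 2294 strongest regions, 11 of 66 members (16.7%) had a site, against 5.98% of all genes. The 11 were 8 vps genes, 2 rab genes and arf-6.

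Counts of sites differed among the ESCRT complexes, whose members are few. All 3 ESCRT-II genes had one, as did 4 of the 6 members that encode ESCRT-III subunits or the VPS4 ATPase, and neither ESCRT-I member did, where 8.46% of all genes had one. With a window from 500 bp upstream vps-22, vps-36 and vps-32.1 were lost, which left vps-25 alone in ESCRT-II. With each summit given only to the nearest 5′ end vps-22, vps-2 and vps-32.1 were lost. With only the outermost 5′ end of each gene counted vps-25 was lost, as its site lay at an inner 5′ end. No ESCRT-II gene thus kept its site under all of these settings. In ESCRT-II, the complex that links ESCRT-I to the filament-forming subunits, the pooled signal value (the authors' peak-caller value, compared only within a list) was 198 at vps-22 (WBGene00016167), 152 at vps-25 (WBGene00012193) and 94.2 at vps-36 (WBGene00008919). In ESCRT-III it was 235 at vps-60 (WBGene00018290), the CHMP5 homologue, 208 at vps-32.1 (WBGene00016961), the CHMP4 homologue that forms most of the filament, and 146 at vps-2 (WBGene00012903), the CHMP2 homologue. The gene vps-4 (WBGene00021334), for the ATPase that takes the filament apart, had a value of 211. Optimal regions ran from 65.3 to 975 with a median of 102, so 6 of these 7 ESCRT sites lay above that median and vps-36 lay below it.

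The ESCRT genes without an optimal site differed in what the pooled list held. At vps-24, the CHMP3 homologue, the strongest pooled region had a signal value of 63.4 and rank 2392 of 30000, just outside the 2294 optimal regions. At vps-20, the CHMP6 homologue that nucleates the filament, no list had a region in the window. The ESCRT-I genes vps-37 and vps-28 had pooled regions of 52.6 and 36.7. Of the ESCRT partners whose names lie outside the vps class, tsg-101, mvb-12 and did-2 had no optimal site.

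In the GARP and EARP tethers, which act at the Golgi and on recycling endosomes, only vps-51 (WBGene00015176) of 5 members had one, and its signal value of 290 (rank 170) was the highest of all members. The other 4 subunit genes gave 32.9 at vps-50, 21.8 at vps-52, 19.4 at vps-53 and no pooled region at vps-54. In the HOPS and CORVET tethers of the late and early endosome, vps-33.1 (WBGene00015130), for a Sec1/Munc18-type (SNARE-binding) subunit, was the only 1 of 8 with a site. Its signal value of 71.8 (rank 1989) was the lowest of the 16. The paralogue vps-33.2 had a pooled region of 50 (rank 3481), vps-39 had 48.4, and vps-8, vps-16 and vps-18 had 21.4 to 25. At vps-11 no list had a region in the window, and at vps-41 replicate 4 alone had one. Several tether genes without a site start close behind a same-strand gene, so their windows reach into it. The gaps were 91 bp at vps-8, 102 at vps-11, 94 at vps-16, 112 at vps-41, 102 at vps-53 and 91 at vps-54. At vps-18, vps-39 and vps-50, also without a site, the upstream neighbour was divergent. The part of this layout in the counts was not tested.

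The members of retromer and of the lipid kinase that marks endosomes had no optimal site in the window. Of the retromer core genes, vps-26 had a pooled region of 25.5, and vps-29 and vps-35 had no pooled region. These retromer genes start close behind a same-strand gene (gaps of 174 bp at vps-26, 89 at vps-29 and 191 at vps-35), as does vps-34 (116). Their windows thus reach into the upstream gene, and the part of this layout in the counts was not tested. The class III phosphatidylinositol 3-kinase gene vps-34 and its regulatory subunit gene vps-15 had no pooled region, while the partner gene epg-8, for the autophagy subunit of that kinase complex, had an optimal site 247 bp upstream with a signal value of 166. The other partner, bec-1 (Beclin), had no optimal site. The gene vps-45 (WBGene00016643), for the Sec1/Munc18-type protein of early endosomal fusion, had a site with a signal value of 81.6 (rank 1651).

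Of the 4 Rab genes with a site, 3 belong to the list of endosomal and lysosomal Rabs and rab-18 to that of the endoplasmic reticulum and Golgi. For rab-7 (WBGene00004271), the GTPase of late endosomes and lysosomes, the pooled signal value was 252 (rank 227). For rab-14 (WBGene00004276), which acts in the maturation of phagosomes, the value was 151, and for rab-5 (WBGene00004268), the early endosome GTPase, it was 114. These were 3 of the 9 endosomal and lysosomal Rab genes. The recycling Rab gene rab-11.1 had a pooled region of 54.6 (rank 2986) and rab-35 one of 24.6, while rab-8, rab-10, rab-11.2 and rab-21 had no pooled region.

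Of the 6 Rab genes of the endoplasmic reticulum and Golgi, rab-18 (WBGene00004277), whose product is found on lipid droplets and the endoplasmic reticulum, had a site with a value of 239 (rank 254). The pooled region of rab-1, the Rab of transport from the endoplasmic reticulum to the Golgi, had 45.4, those of rab-6.2 and rab-30 had 29.3 and 21.3, and rab-6.1 and rab-33 had none. The regulated secretion and cilia genes rab-37 and rab-28 had no optimal site. Among the smaller classes, snx-13 (WBGene00013803), for a sorting nexin with an RGS domain, had a value of 129, and arf-6 (WBGene00000184), the GTPase of the plasma membrane and endocytic recycling, had 96.3. The retromer-linked nexin genes snx-1, snx-3, snx-6 and snx-27 had no optimal site, with snx-3 nearest to the list at 59.4 (rank 2620). In the endolysosomal and Golgi group of arl-1, arl-5, arl-8, arf-5 and arf-6, arf-6 alone had a site. The ciliary genes arl-3, arl-6 and arl-13 had none.

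**Figure D2:**
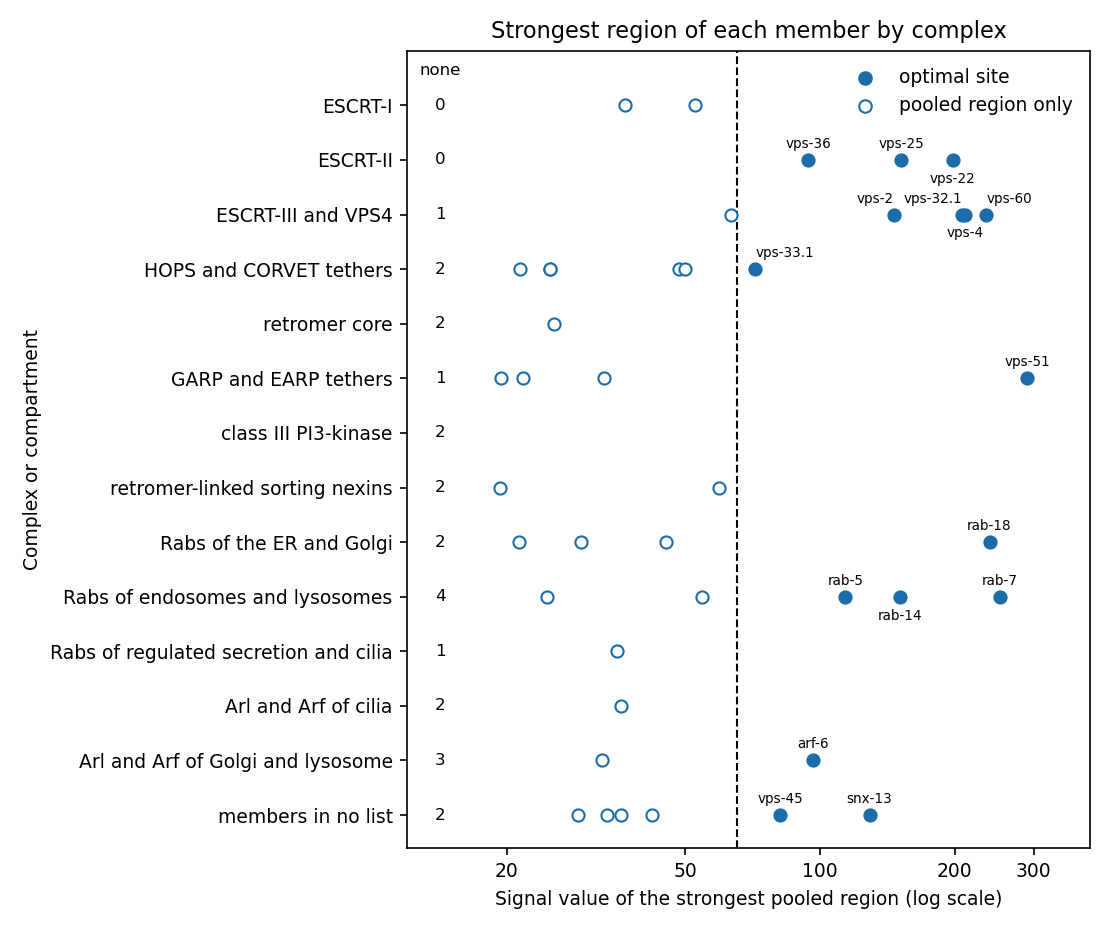
Signal value (log scale, authors' peak-caller scale) of the strongest pooled region in the promoter window of each member, by complex or compartment, with filled points for optimal sites and open points for regions outside the optimal list. Numbers at the left count members with no pooled region, and the dashed line is the lowest optimal signal value, 65.3; all 3 ESCRT-II genes lie to its right and all 3 retromer core genes lie to its left or in the left count.

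The signal in each replicate is a rank in that replicate's list of 30000, where 1 is the strongest. At vps-51 the ranks were 127 in replicate 3 and 234 in replicate 4. At rab-7 they were 182 and 339, and at vps-60 they were 290 and 273. These sites were strong in both libraries. At vps-4 the ranks were 329 and 403, at vps-32.1 they were 447 and 214, and at vps-22 they were 509 and 244. The next sites ranked lower in replicate 4, with 540 and 869 at vps-25, 525 and 627 at rab-14, and 532 and 1150 at vps-2. The sites of arf-6 (1809 and 992) and vps-45 (2285 and 1104) ranked higher in replicate 4, and vps-45 was close to the end of the strongest 2294 of replicate 3. These made up the 11 sites (68.8%) found among the strongest of both replicates, beside 67.4% of the 1303 optimal promoter sites.

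The other 5 sites were among the 2294 strongest regions of 1 replicate only. At all of them but rab-18 the other replicate had a summit within 100 bp at a lower rank. At snx-13 the ranks were 505 in replicate 3 and 3122 in replicate 4. At rab-5 they were 822 and 3026, and at vps-33.1 they were 1514 and 9331. Of these, vps-33.1 was the weakest in replicate 4. At vps-36 the order was the opposite, with rank 2835 in replicate 3 and 747 in replicate 4. At rab-18 the rank in replicate 3 was 287, with a summit 2 bp away, and replicate 4 had no region within 5000 bp. That was so for 3 of the 2294 optimal sites. Of the 254 optimal sites as strong as that of rab-18 or stronger, 2 had no replicate 4 summit within 100 bp. The optimal list was the same set as the 2294 strongest pooled regions, and it held sites with no summit within 100 bp in 1 replicate. Why replicate 4 had no region near rab-18 was not tested.

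**Figure D3:**
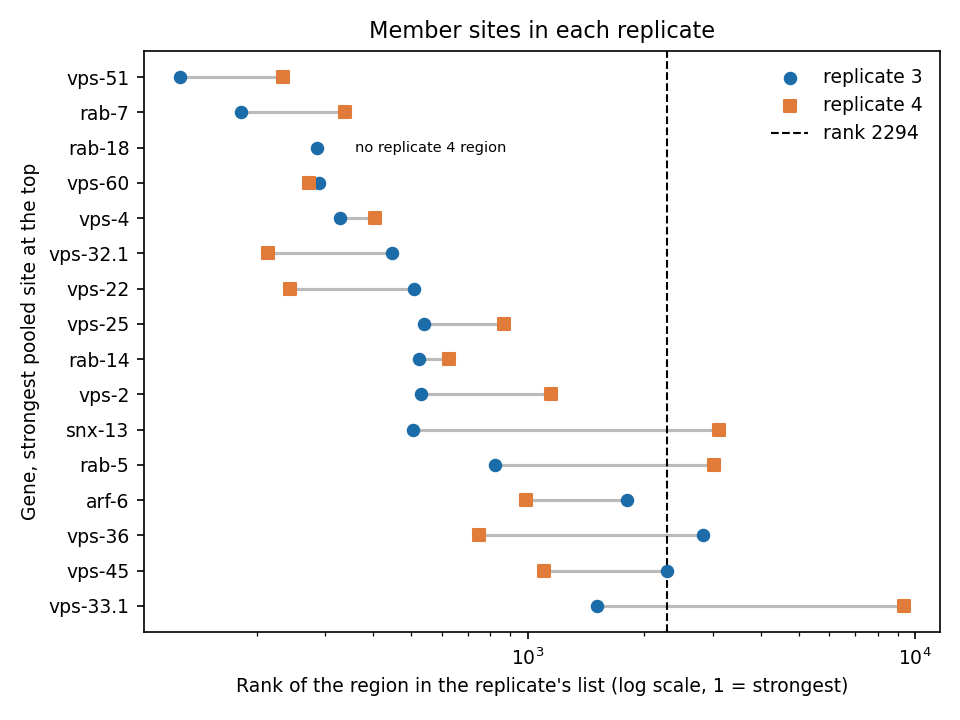
Rank of each member's site in the list of replicate 3 (circles) and replicate 4 (squares), on a log scale where 1 is the strongest region, with genes ordered by the pooled signal. The dashed line at rank 2294 is the size of the optimal list; 4 sites lie within it in replicate 3 alone and 1 in replicate 4 alone, and rab-18 has no replicate 4 point.

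Over the 15 sites with a summit in both lists the replicate ranks had a Spearman rho of 0.639, beside 0.667 over 1218 promoter sites. These are descriptions of sites picked for high rank in the pooled reads. The rank was better in replicate 3 at 9 member sites and in replicate 4 at 6.

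Each of the 16 genes had 1 site in its window, and no site served a pair of members. Summits lay from 970 bp upstream (vps-36) to 25 bp downstream (rab-18) of the member's own nearest 5′ end, with a median of 254 bp upstream, beside 242 bp over all 1778 pairs of a gene and a promoter site. In 14 of 16 (87.5%) the summit lay between genes, beside 78.4% of all promoter sites. At vps-25 (10 bp downstream) and rab-18 it lay in the 5′ UTR of the member (12.5%), where 5.76% of all promoter sites lay in a 5′ UTR. None lay in an intron, where 13.7% of all promoter sites did. The remaining sites near the start were those of vps-45 (49 bp upstream), arf-6 (176), vps-33.1 (182), vps-51 (194) and snx-13 (198). In the middle lay vps-4 (243), vps-2 (264), vps-60 (338) and rab-14 (423), and vps-22 (605), vps-32.1 (651), rab-5 (741) and rab-7 (796) lay farther out.

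**Figure D4:**
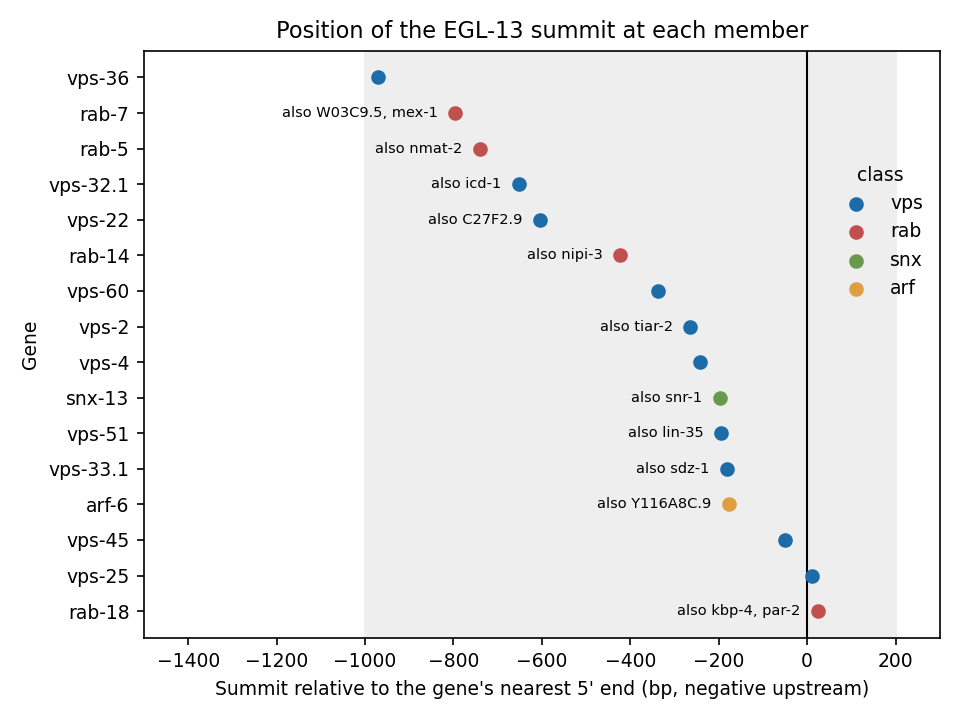
Position of the EGL-13 summit relative to the nearest 5′ end of each member, in bp with negative values upstream, coloured by name class. The grey band is the promoter window from 1000 bp upstream to 200 bp downstream, and labels name the other genes whose window holds the same summit, which is the case at 11 of the 16 sites.

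Most sites were shared with a neighbouring gene, so the data do not say which gene a site belongs to. The summit lay in the window of at least 1 other protein-coding gene at 11 of 16 member sites (68.8%), beside 33.7% of all promoter sites. These shares are not counted alike. Member sites were reached through genes, which favours a site in several windows, while each promoter site was counted once. The difference between them is therefore not read as a trait of the members. The 5 sites of a member alone were those of vps-4, vps-25, vps-36, vps-45 and vps-60. The strongest site, at vps-51, lay 194 bp upstream of it and 224 bp upstream of lin-35, the worm retinoblastoma gene, on the opposite strand. The site of rab-18 was 151 bp upstream of kbp-4 and 651 bp upstream of par-2, an embryonic polarity gene. The site of snx-13 was 413 bp upstream of snr-1, which encodes a spliceosomal Sm protein.

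At 5 members a neighbour's 5′ end was nearer to the summit than the member's. The summit near rab-7 lay 183 bp upstream of W03C9.5 and 910 bp upstream of mex-1, a germline RNA-binding protein gene. The summit near vps-32.1 lay 402 bp upstream of icd-1, for a subunit of the nascent polypeptide-associated complex, and that near vps-2 lay 205 bp upstream of tiar-2, an RNA-binding protein gene. Those near vps-22 and arf-6 lay 54 bp upstream of C27F2.9 and 144 bp upstream of Y116A8C.9. At the remaining 11 the member's own 5′ end was the nearest. Where each summit was given only to the gene with the nearest 5′ end, up to 1000 bp away on either side, 12 members had a site, of which 11 were among the 16. The 12th, snx-17, came in because this count reaches farther downstream than the promoter window.

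The members with a site differed in how their upstream neighbour lay. That neighbour was taken from the gene's outermost 5′ end, at any distance. A site counted with a divergent neighbour thus need not lie between the pair of genes. At vps-25 it lay at an inner 5′ end instead. Of the 28 members whose upstream neighbour is transcribed away from them on the other strand, 12 (42.9%, exact binomial 95% interval 24.5 to 62.8) had a site, beside 1062 of 8361 such genes (12.7%). Of the 31 with the upstream neighbour on the same strand, 2 (6.45%, 0.791 to 21.4) had a site, namely vps-36 and vps-45, beside 5.12% of all such genes. Of the 7 whose 5′ end lies inside another gene, vps-22 and rab-7 had one, beside 7.28% of all such genes. Most member sites thus lay at genes with a divergent neighbour (12 of 16), as did most of all genes with a site (1062 of 1681). The share of same-strand members was near that of all same-strand genes. Promoter orientation and membership were not separated by a test. By chromosome, sites were found at 4 of 15 members on I, 3 of 14 on II, 3 of 14 on III, 2 of 8 on IV, 2 of 7 on V and 2 of 8 on X. The share of all genes was not counted by chromosome, so these counts are not read as differences between chromosomes.

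The member sites lay within the range of promoter sites as a whole in signal value and GC content. Their median signal value was 152 (middle 50% from 110 to 217), beside 110 (82.1 to 173) over all 1303 promoter sites, and 12 of 16 were in the stronger 50% of the optimal list, beside 56.5%. The median GC content within 50 bp of the summit was 50.5%, beside 47.5%, and ran from 23.8% at vps-2 to 60.4% at vps-60 and rab-7. Within 100 bp the medians were 43% and 41.3%. The middle 50% of the GC values overlapped, from 46.5% to 56.4% at members and from 41.6% to 52.5% at all promoter sites.

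Runs of bases were sought on either strand, up to 50 bp from the summit. AACAAT, the core bound by SOX HMG boxes, was at 1 of 16 member sites (arf-6), or 6.25%, beside 6.45% of all promoter sites. GAGAGA was at vps-25 and vps-45, 12.5% beside 22.1%, and CACGTG, the E-box, was at none beside 3.84%. GACGCA was at vps-60 and snx-13, 12.5% beside 18.1%, and TGATAA was at vps-2, 6.25% beside 4.14%. None of the 5 motifs was found at 10 of 16 (62.5%), beside 56.2%. Without replicate 3, AACAAT was at 2 of 14 sites (14.3%), GAGAGA at 3 of 14 (21.4%) and TGATAA at none. With 16 sites, 1 site is 6.25%, so differences of this size cannot be resolved.

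The shorter runs GACGC, which every GACGCA contains, and GCGCG were chosen after the sequences had been seen. GACGC was at 7 of 16 (43.8%), beside 31.1%, and occurred 3 times each in the windows of vps-60 and rab-14 shown above. GCGCG was at 8 of 16 (50%), beside 34%. The longest run common to a pair of member windows (those on 5 of the 6 chromosomes were compared) was the 11 bases gagcgcacttg at rab-7 and rab-18, and 23 of the 1303 promoter sites held it. That run was picked for being shared, so its count among members is no comparison with the other sites. Its last 6 bases, CACTTG, were also at arf-6, which made 3 of 16 member sites (18.8%), beside 8.21% of all promoter sites. CACTTG was likewise picked from these windows, so the difference is not read as a trait of the members. No tRNA, snoRNA or snRNA gene lay within 200 bp of a member summit, beside 4.53% of promoter sites. A match is a run of letters and not a shown binding site.

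Of the 50 members without an optimal site, 26 had a weaker pooled region in the window and 24 had none. Over all protein-coding genes, 6879 of the 18184 without an optimal site had such a region. In 14 of the 50 neither the pooled list nor a replicate list had a region there. The regions of highest signal value outside the optimal list were those of vps-24 (63.4), snx-3 (59.4), rab-11.1 (54.6), vps-37 (52.6) and vps-33.2 (50). Inside it, the lowest were vps-33.1 (71.8) and vps-45 (81.6). The replicates differed at several of these. At vps-24 the ranks were 2254 in replicate 3 and 6129 in replicate 4, while at vps-37 they were 13709 and 1285. With the strongest regions of replicate 4 alone, vps-37 and snx-17 gained a site, and with those of replicate 3 alone rab-1 and vps-24 did. With replicate 4 alone rab-18, rab-5, snx-13 and vps-33.1 lost theirs, and with replicate 3 alone vps-36 did.

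Summits outside the window were found at some members. An optimal summit (signal value 103) lay in an intron of snx-17, 893 bp downstream of its nearest 5′ end. The strongest pooled region within the snx-17 window had a value of 42.3. Between 1000 and 5000 bp upstream, optimal summits lay at 6 members without a window site, vps-16, vps-54, rab-10, rab-19, rab-33 and arl-8. At all 6 another gene's 5′ end was the nearest. For vps-16 it was mrps-17, with a signal value of 124 at 1308 bp from vps-16, and for vps-54 it was erh-1, with 153 at 2705 bp. The summits 1064 bp upstream of rab-14 (172) and 1446 bp upstream of vps-4 (192) were nearest to nipi-3 and gsa-1.

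Genes of the same pathway outside the 5 name classes were counted for comparison. Of 150 such genes, 30 (20%) had an optimal site, beside 8.46% of all protein-coding genes. A pooled region was found at 104 of the 150, beside 43.1% of all genes. Coats and adaptors had 11 of 34 (32.4%), with the highest signal values at epn-1 (452), an epsin gene, apb-1 (365), for a beta adaptin, dpy-23 (206), for the AP2 mu subunit, and sar-1 (204), for the COPII GTPase. SNARE and Sec1/Munc18-type genes had 7 of 31 (22.6%), led by syx-5, unc-18, snb-1 and nsf-1 with 255, 112, 110 and 97. The exocyst, TRAPP and COG tether genes had 5 of 25 (20%), led by sec-15 (246), exoc-7 (191), cogc-2 (152) and sec-3 (151).

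Genes for regulators and effectors of Rab and Arf proteins had 4 of 45 (8.89%), which is near the 8.46% of all genes. They were rbg-3 (187), ccz-1 (133), tbc-18 (90.7) and agef-1 (89.9). A mixed list of ESCRT partners and other endosomal genes had 3 of 15 (20%), namely epg-8 (166), spe-39 (134) and ppk-3 (121). The ESCRT genes tsg-101, mvb-12 and did-2 of that list had none, so its share does not describe ESCRT partners. The GTPase genes and the genes of their regulators were not compared by a test.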

How the data were processed

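Chromatin was sonicated, per the labels. Per the deposited file descriptions, the authors made region lists against a control alignment: 1 list per replicate and 1 of pooled reads, each of 30000 regions with background, and an optimal list of 2294 regions after an IDR (reproducibility between ranked lists) threshold. Not given in the sources used here were the aligner, peak caller and threshold. The signal value deposited with each region, of unstated scale, was used to rank regions within a list. The deposited −log10 q value was tied at 3.36 for the strongest regions and was not used to rank. Summits came from the deposited offset. The optimal list was the same set as the 2294 strongest pooled regions. Depth per sample is unknown.

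The ce11 lists were joined to Ensembl release 115 (WBcel235). Chromosome names matched, and the last region of each of 6 chromosomes ended within its length. A window covered every transcript of a protein-coding gene. A site was matched to a replicate where summits lay within 100 bp. There was 1 group, so no comparison between groups and no test was made, and shares carry exact (Clopper-Pearson) 95% intervals. The members, lists and motifs were chosen with earlier results of these data known. Genes were named by a rule: every member with a site, the 5 strongest members outside the optimal list and those just inside it, every member of a complex of 8 or fewer subunits, and the 4 strongest genes of each other list; neighbouring genes are named for shared sites. Outside this rule, chosen after their values were seen, are the other members of the list of 9 endosomal and lysosomal Rabs, and rab-19 and snx-17. Of the names listed for the complexes, vps-32.2, vps-3, rab-2, rab-27, arf-1.1, arf-1.2 and arf-3 were not matched. Of the members, 58 belong to a complex list. The site counting was tested on simulated data. Alternatives covered the window, gene assignment, 5′ ends, threshold, summit distance and each replicate alone. Python 3.11.15, NumPy 2.4.6, SciPy 1.17.1 and matplotlib 3.10.9 were used. The ce10 lists were not used here.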

Additional observations from a re-analysis of the deposited data

How the results depend on the processing

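Of 105 alternatives to 15 values, 86 left the value within its interval (for medians, within the middle 50% of the member values) and 19 moved it. The intervals of the member classes are wide, so large changes can stay within them. From 500 bp upstream the rab share went from 21.1% to 10.5% and the vps share from 32.3% to 22.6%, both within the interval. With all pooled regions the shares were 63.6% of members, 71% of vps, 63.2% of rab and 100% of arf genes, and 43.1% of all genes. The snx share was 0 with the strongest regions of both replicates. The arf share, of 3 genes, was 0 by the nearest 5′ end and 0 in the stronger 50% of the list. The share of all genes, whose interval is narrow, was 6.74% from 500 bp upstream, 10.9% from 2000 bp, 6.58% by the nearest 5′ end (up to 1000 bp on either side, so also farther downstream), 7.78% by the outermost 5′ end, 5.09% in the stronger 50%, 5.98% in both replicates and 8% to 8.29% in 1 replicate alone. AACAAT was at 0 member sites within 25 bp and 0 in the stronger 50%, but at 12.5% within 100 bp and at 14.3% (2 of 14) without replicate 3; GAGAGA was at 25% within 100 bp and at 21.4% without replicate 3. TGATAA was at 0% to 5.88% in 1 replicate alone, and the median GC content was 43% within 100 bp. From 500 bp upstream 11 members had a site, without rab-5, rab-7, vps-22, vps-32.1 and vps-36, and from 2000 bp 20 had one. No paired analysis was possible because there was 1 group of 2 replicates.

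Limits: read depth is unknown, the 16 sites are few, and the replicate lists are not independent of the optimal list. Whether a site acts on the member or on its neighbour was not tested, nor was EGL-13 dependence of expression. Open chromatin or promoter activity at broadly used genes was not measured here, and its part in these counts was not tested.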
